A study of Mus musculus with 18 samples.

Results

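The genes described here are 32 genes that monocytes and macrophages share, chosen by name with earlier results of these data known. They encode the receptors, adaptors, enzymes and lysosomal proteins by which myeloid cells are commonly recognized. They were followed in heart RNA from 18 adult CD-1 mice of both sexes, all at least 8 weeks old and anesthetized with isoflurane. A control group of 6 mice received anesthesia without irradiation, and groups of 6 mice each were collected 2 weeks and 6 weeks after ionizing radiation of 25 Gy, given in a single fraction (2 weeks and 6 weeks post-IR). The labels name the tissue as intraventricular septum and match controls by litter and sex, and the same 6 controls, for which no collection time is given, served both times. By Ensembl identifier, 31 of the 32 genes were found among the 30072 genes of the deposited tables, and all 31 passed the filter that left 15054 genes for testing. Lilrb4a was not analysed here.

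Macrophages live in the healthy heart between the cardiomyocytes, and blood monocytes enter it after injury. The transcription factor PU.1, made from Spi1, and the growth factor receptor Csf1r set the myeloid program. Activating Fc receptors pair with the adaptor Fcer1g, and other receptors such as Trem2 pair with the adaptor Tyrobp. The ITAM motifs of both adaptors pass on the signal when the receptor is bound. Engulfed material meets the phagocyte NADPH oxidase, which makes superoxide, and then lysosomal cathepsins. Several of the 31 genes are not limited to macrophages. Ptprc (CD45), Cd52, Cd53, Laptm5, Coro1a and Lcp1 are made by lymphocytes as well, and Ctsb, Lgmn and Lgals3 by many other cells.

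Promoter sequences were searched for GAGGAAGT, a sequence of the kind that PU.1 binds, because Spi1 is itself a member. RefSeq promoters of the assembly GRCm38.p6, from 250 bases before to 50 after each start, were at hand for 23 of the 31 genes. Read on both strands, GAGGAAGT stood in the promoters of 3 of these 23 genes (13.0%), namely Ctss, Cd53 and Pld4, and in 3.69% of the 27025 genes with a promoter. The shorter AGAGGAA, which shares its last 6 letters with the first 6 of GAGGAAGT and overlaps it in Pld4, stood in 8 of the 23 genes (34.8%) against 11.9% of all genes. The TATA sequence TATAAA stood in 5 of 23 (21.7%) against 15.7%. The windows below show the 3 genes with the longer motif, then the genes whose AGAGGAA began within 60 bases before the start. Each runs on the gene's strand from 100 bases before the start to 30 bases after it, and capitals mark the motif, which reads as its reverse complement, ACTTCCTC or TTCCTCT, in all of them but Pld4.
Ctss, chr3:95526686-95526815, plus strand: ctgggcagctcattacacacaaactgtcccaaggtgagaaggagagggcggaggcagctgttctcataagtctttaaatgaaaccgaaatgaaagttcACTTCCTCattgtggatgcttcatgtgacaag
Cd53, chr3:106790120-106790249, minus strand: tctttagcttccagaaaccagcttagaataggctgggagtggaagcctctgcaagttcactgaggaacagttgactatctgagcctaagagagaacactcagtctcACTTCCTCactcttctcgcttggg
Pld4, chr12:112760555-112760684, plus strand: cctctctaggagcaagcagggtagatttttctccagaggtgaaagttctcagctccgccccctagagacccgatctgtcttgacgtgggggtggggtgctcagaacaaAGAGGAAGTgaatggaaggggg
Fcgr3, chr1:171059374-171059503, minus strand: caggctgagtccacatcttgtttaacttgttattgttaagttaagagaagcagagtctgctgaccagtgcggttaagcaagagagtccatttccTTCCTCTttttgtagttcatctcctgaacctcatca
Fcgr1, chr3:96293940-96294069, minus strand: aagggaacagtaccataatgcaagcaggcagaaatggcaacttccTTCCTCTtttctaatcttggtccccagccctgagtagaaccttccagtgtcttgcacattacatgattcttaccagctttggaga
Laptm5, chr4:130913216-130913345, plus strand: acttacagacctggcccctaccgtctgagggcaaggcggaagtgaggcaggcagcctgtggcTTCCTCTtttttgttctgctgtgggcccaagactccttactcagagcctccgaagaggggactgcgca
The motif began 2 bases before the start in Ctss, at base 7 after it in Cd53 and, in the longer form, at base 10 after it in Pld4. In Fcgr3, Laptm5 and Fcgr1 it began 6, 38 and 55 bases before the start. These matches describe the letters of the windows, and no binding was measured.

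Levels are given as CPM, the estimated counts of a gene relative to the TMM-scaled library size, and a gene was called where the adjusted p of edgeR's quasi-likelihood test over all genes was under 0.05. Library totals ran from 11522987 to 15501019 counts over the 18 mice, so that 3 counts, the smallest level treated as present, came to 0.1935 to 0.2603 CPM. The TMM factor was higher in both irradiated groups (0.844 to 0.991 in controls, 0.962 to 1.03 at 2 weeks and 1.04 to 1.13 at 6 weeks, adjusted exact permutation p = 0.00974 for each pair of groups). The mitochondrially encoded share of counts was 19.8 to 25% in controls, 17.8 to 20.6% at 2 weeks and 16.5 to 20% at 6 weeks. The part of both in the results was not tested. With library size in place of TMM, 1707 of 1789 calls at 2 weeks and 5494 of 5820 at 6 weeks were higher, against 465 of 755 and 2029 of 3760 with TMM, and the direction of Ctsb turned.

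Control mouse 4 stood apart in the genes described here. It had the highest level of the 6 controls for 27 of the 31 genes, against 21.3% of all genes tested, and its summed level of the 31 genes was 1151 CPM against 606 to 796 CPM in the other 5 controls. The same mouse had the lowest summed cardiomyocyte markers of the controls (28253 against 37063 to 44556 CPM) and the highest summed fibroblast markers (2949 against 868 to 1273 CPM). Control mouse 3 was lowest for 21 of the 31 genes, against 19.5% of all genes. At 6 weeks, mouse 6 was highest for 21 genes and mouse 2 lowest for 14. Results of the 31 genes are therefore given with and without control mouse 4. Because that mouse was set aside for its high levels of these genes, leaving it out raises most of their fold changes by construction. The results without it are no separate support. Calls in the other gene lists are given with all mice only.

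Most of the myeloid genes were called higher at 6 weeks, fewer were called at 2 weeks or between the times, and none was called lower in any comparison. At 2 weeks 7 of the 31 were called higher, beside 3.09% of all genes tested. At 6 weeks 25 of the 31 were called higher, beside 13.5% of all genes. In the direct comparison of 6 with 2 weeks, which uses no control mouse in its contrast, 9 of the 31 were called higher, beside 3.31%. The median log2 fold change of the 31 was 0.50 at 2 weeks, 1.31 at 6 weeks and 0.67 between the times, beside medians over all genes of -0.0015, -0.019 and -0.00075. In bulk tissue more myeloid cells and more of each RNA per cell cannot be told apart. The 2 comparisons with controls share the 6 control mice.

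**Figure D1:**
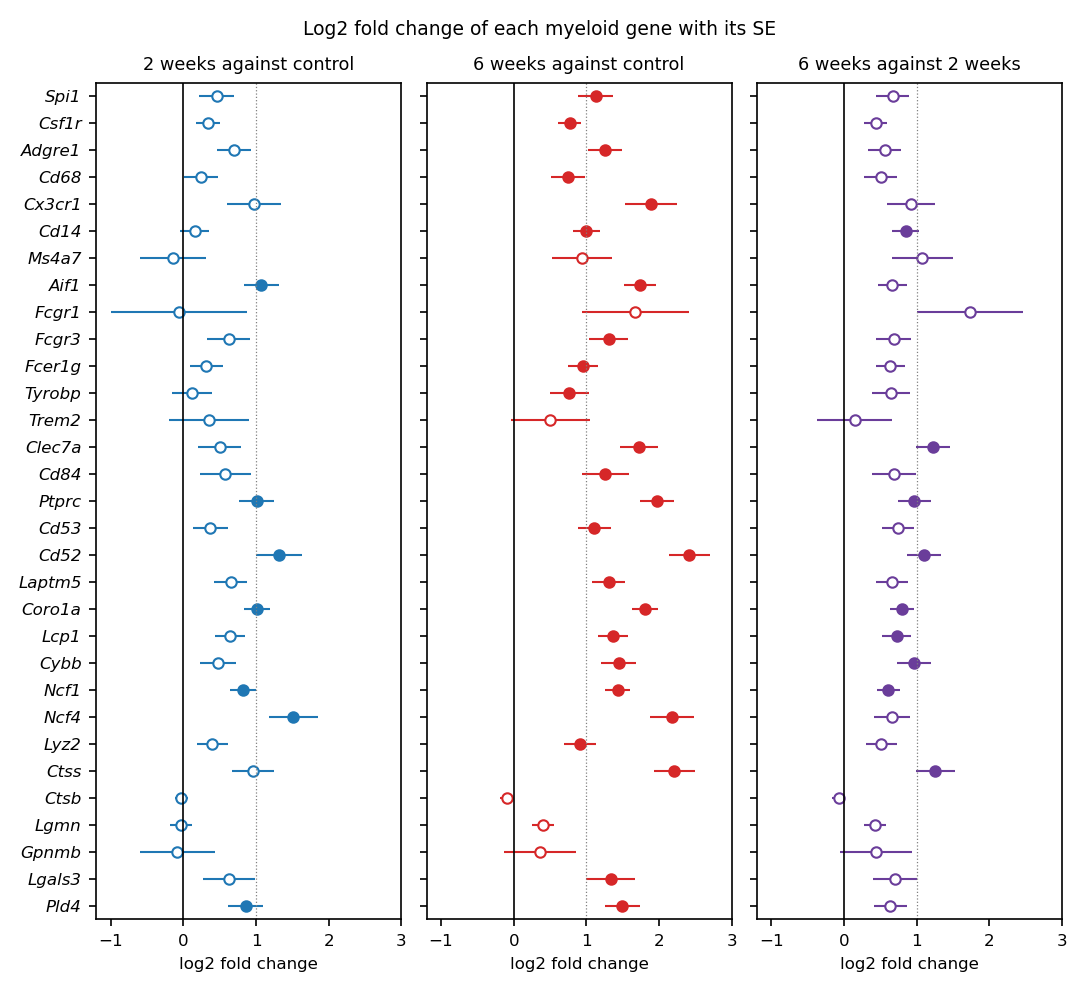
Log2 fold change (x axis) of each of the 31 genes (y axis) at 2 weeks against control, at 6 weeks against control and at 6 weeks against 2 weeks, with bars for the SE and filled points for an adjusted p under 0.05. Filled points number 7, 25 and 9, and all lie to the right of 0, while Ctsb lies near 0 in each panel.

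A call with a log2 fold change above 1 was made for 5 members at 2 weeks (0.737% of all genes were so called and higher), for 20 at 6 weeks (5.27%) and for 3 between the times (0.963%). The 6 irradiated mice lay wholly above the 6 controls for 2 members at 2 weeks, Coro1a and Aif1 (1.96% of all genes did so), and for 14 members at 6 weeks (5.8%). All 6 mice at 6 weeks lay above all 6 at 2 weeks for 12 members (2.27%). With all mice Coro1a alone was separated in all 3 comparisons, and without control mouse 4 Ctss, Laptm5, Lcp1 and Lyz2 were as well.

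**Figure D2:**
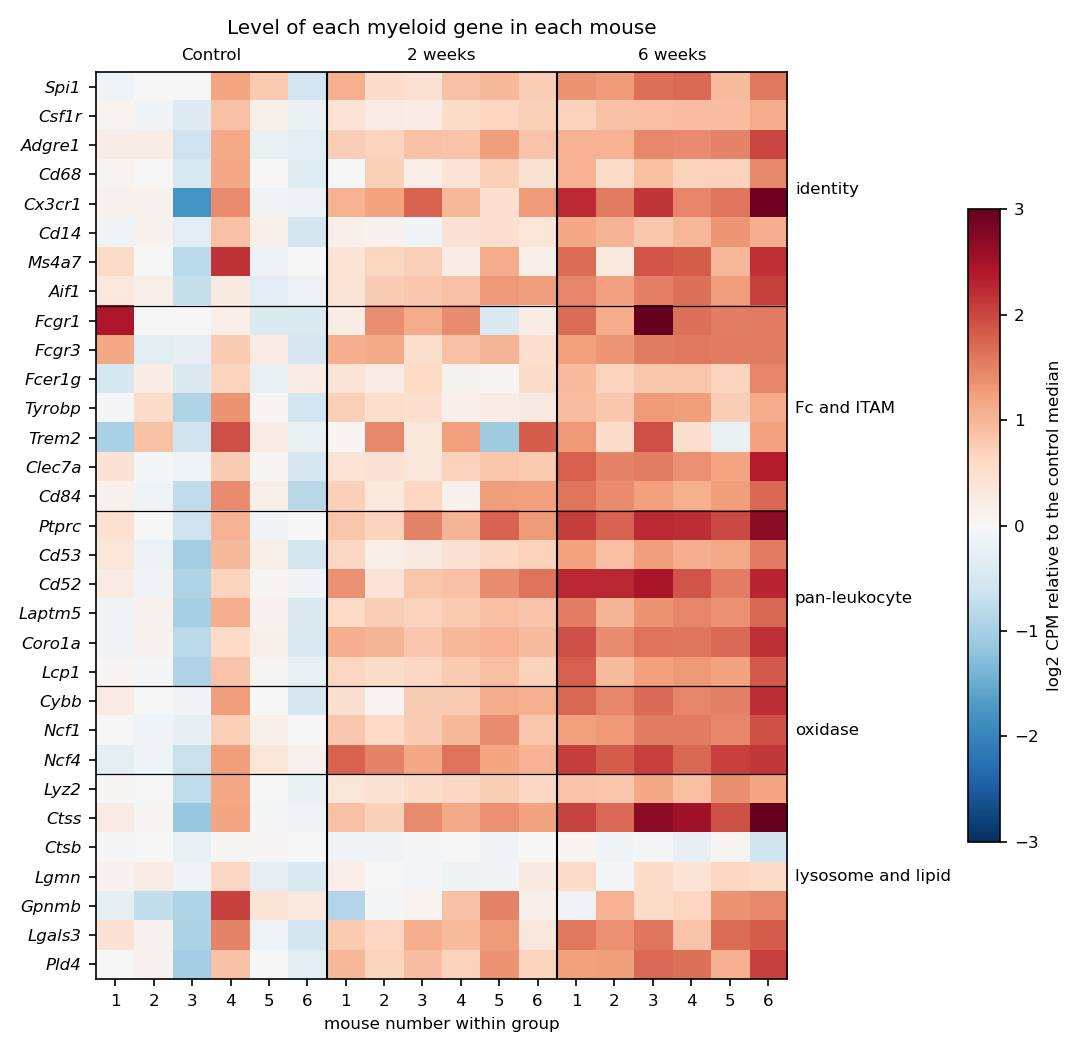
Heat map of log2 CPM of 31 genes (rows, by role) in each of 18 mice (columns), relative to the gene's median over controls, with 0.25 CPM added and colors limited at 3 in both directions. Control mouse 4 is redder than the other controls in most rows, mouse 6 at 6 weeks is the darkest column, and the row of Ctsb stays pale throughout.

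Control mouse 4 changed the counts more at 2 weeks than at 6 weeks. It was the highest control for 27 of the 31 genes, so higher fold changes against controls without it were fixed in advance. Without that mouse, 17 members were called higher at 2 weeks, among them all 7, beside 3.77% of all genes. The median log2 fold change was 0.81. The calls above a log2 fold change of 1 at 2 weeks went from 5 to 11, and the members wholly above the controls from 2 to 14, beside 3.28% of all genes. The calls added at 2 weeks were Csf1r, Adgre1, Cx3cr1, Cd84, Laptm5, Lcp1, Cybb, Lyz2, Ctss and Lgals3. At 6 weeks 27 were called, among them all 25, beside 14.2%, with a median of 1.60, and the separated members rose from 14 to 25 beside 7.86% of all genes. Ms4a7 and Lgmn were the 2 added calls. Between the times, where the control group enters through the shared estimate of spread, 22 members were called without control mouse 4 (4.17% of all genes) and 22 in a fit of the 12 irradiated mice alone (4.33%), with 20 in common. None was called lower in these fits. Control mouse 3 was the lowest control for 21 of the 31 genes. Leaving it out instead lost the calls of Cd52 and Pld4 at 2 weeks, and of Cd68 and Tyrobp at 6 weeks.

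**Figure D3:**
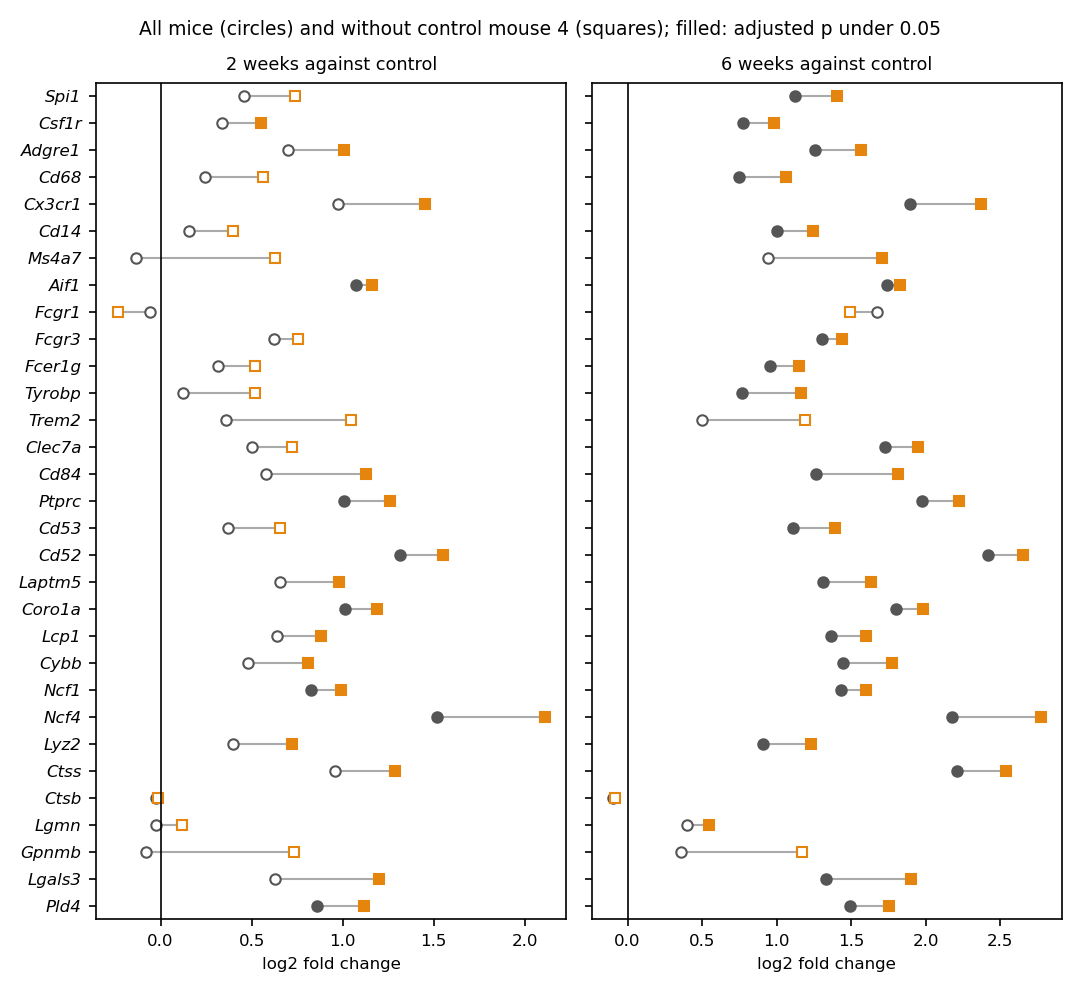
Log2 fold change (x axis) of each gene (y axis) from all 18 mice (circles) and from 17 mice without control mouse 4 (squares), at 2 weeks and at 6 weeks against control, with filled symbols for an adjusted p under 0.05. Squares lie to the right of circles for every gene but Fcgr1, and filled symbols rise from 7 to 17 at 2 weeks and from 25 to 27 at 6 weeks. For most genes this shift follows from the high levels for which that mouse was set aside.

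Genes of myeloid identity were the first role examined, and 7 of the 8 were called higher at 6 weeks, 1 at 2 weeks and 1 between the times. Over all genes tested, 13.5, 3.09 and 3.31% were called higher in that order. Aif1 (chr17:35170991-35176068, minus strand), which encodes the actin-bundling protein IBA1 used to stain macrophages, lay at 0.648 to 1.56 CPM (median 1.23) in controls, 1.69 to 3.38 (median 2.36) at 2 weeks and 3.19 to 5.79 (median 3.88) at 6 weeks. Neither irradiated group overlapped the controls, while the 2 irradiated groups overlapped each other. The change came to 1.07 on the log2 scale (SE 0.238, adjusted p = 0.0146) at 2 weeks and 1.74 (SE 0.223, adjusted p = 2.36e-05) at 6 weeks. Cd14, the coreceptor for bacterial lipopolysaccharide, was called at 6 weeks and not at 2 weeks. Its levels were 2.5 to 7.15 CPM (median 3.8) in controls, 3.55 to 5.44 (median 4.58) at 2 weeks and 6.81 to 9.89 (median 8.17) at 6 weeks, so that every mouse at 6 weeks lay above every mouse at 2 weeks. It differed by 0.15 at 2 weeks (adjusted p = 0.713), by 1.002 at 6 weeks (SE 0.188, adjusted p = 0.000724) and between the times by 0.85 (SE 0.183, adjusted p = 0.0163).

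The chemokine receptor Cx3cr1, a marker of monocytes and of many tissue macrophages, rose most of the identity genes at 6 weeks, by 1.89 on the log2 scale (SE 0.359, adjusted p = 0.000784), or 3.72-fold, from 0.833 to 9.85 CPM in controls to 10.2 to 28.1 CPM. Adgre1, which encodes the macrophage surface protein F4/80, rose by 1.26 (SE 0.235, adjusted p = 0.000708). Spi1 rose by 1.13 (SE 0.235, adjusted p = 0.00171). Csf1r, whose ligands keep macrophages alive, and the lysosomal glycoprotein Cd68 rose less, by 0.77 (SE 0.16, adjusted p = 0.0016) and 0.75 (adjusted p = 0.0228). The call of Cd68 was lost when control 3, control 6 or mouse 6 at 6 weeks was left out. For Csf1r, control mouse 4, at 95.1 CPM, lay within the range at 6 weeks (83.8 to 111 CPM) while the other 5 controls reached no more than 57.7 CPM.

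Ms4a7, a tetraspan membrane protein of macrophages, was the only identity gene not called at 6 weeks, and its spread was wide. It lay at 0.833 to 8.33 CPM (median 1.65) in controls, 1.91 to 3.85 (median 2.5) at 2 weeks and 2.08 to 8.43 (median 6.12) at 6 weeks. Control mouse 4 held the highest control value, and the next control stood at 2.60 CPM. The log2 fold change at 6 weeks was 0.94 (SE 0.417, adjusted p = 0.109) with all mice and 1.70 (SE 0.331, adjusted p = 0.00102) without control mouse 4. Without that mouse all 8 identity genes were called at 6 weeks, and 4 at 2 weeks, beside 14.2 and 3.77% of all genes.

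Fc receptors, ITAM adaptors and paired receptors came next, and 5 of 7 were called higher at 6 weeks, none at 2 weeks and 1 between the times. The shares of all genes called higher were 13.5, 3.09 and 3.31%. The most certain change was that of Clec7a (dectin-1), the receptor for fungal beta-glucan, at chr6:129461591-129472779 on the minus strand, which the annotation lists as a polymorphic pseudogene. It lay at 0.431 to 1.39 CPM (median 0.711) in controls, 0.974 to 1.46 (median 1.18) at 2 weeks and 1.93 to 4.67 (median 2.49) at 6 weeks. The mice at 6 weeks lay above both other groups, which overlapped. The log2 fold change was 0.50 (adjusted p = 0.357) at 2 weeks, 1.73 (SE 0.257, adjusted p = 0.000104) at 6 weeks and 1.22 (SE 0.236, adjusted p = 0.0089) between the times.

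The receptor Fcgr3 pairs with the signaling chain Fcer1g. At 6 weeks Fcgr3 rose by 1.31 on the log2 scale (SE 0.269, adjusted p = 0.00158), Fcer1g by 0.95 (SE 0.212, adjusted p = 0.00278) and Tyrobp, the adaptor DAP12, by 0.77 (SE 0.266, adjusted p = 0.0418). The differences between these 3 genes were not tested. The call of Tyrobp was lost in 8 of the 18 fits that left out a single mouse (controls 1, 3, 5 and 6, and mice 1, 3, 4 and 6 at 6 weeks), and its value without control mouse 4 was 1.16 (adjusted p = 0.00038). Cd84, a self-binding receptor of the SLAM family, rose by 1.26 (adjusted p = 0.00832). Of the 31-base sequences of Fcgr3, 13.4% occur also in the inhibitory receptor gene Fcgr2b, so that reads may have been split between them.

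The high-affinity IgG receptor Fcgr1 and the lipid receptor Trem2 were not called. Fcgr1 was the least abundant member, with 0 to 45 counts per mouse. It lay at 0 to 1.56 CPM (median 0.0879) in controls, 0 to 0.654 (median 0.317) at 2 weeks and 0.486 to 3.48 (median 0.784) at 6 weeks, and 1 control and 1 mouse at 6 weeks were far above the rest of their groups. Its log2 fold change at 6 weeks was 1.67 with an SE of 0.738 (adjusted p = 0.108). Trem2, which senses lipids and pairs with Tyrobp, lay at 0.521 to 5.48 CPM (median 1.27) in controls, 0.464 to 5.06 (median 2.47) at 2 weeks and 1.05 to 5.5 (median 2.59) at 6 weeks. The groups overlapped along nearly their whole range, with a difference of 0.50 at 6 weeks (SE 0.542, adjusted p = 0.551), and 1.19 (adjusted p = 0.12) without control mouse 4. Without that mouse 5 of the 7 were again called at 6 weeks, and 1 at 2 weeks, beside 14.2 and 3.77% of all genes.

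Genes of the leukocyte membrane and actin cytoskeleton were called higher in 6 of 6 cases at 6 weeks, 3 at 2 weeks and 4 between the times. Beside them, 13.5, 3.09 and 3.31% of all genes were called higher. Coro1a (chr7:126699773-126707787, minus strand), which encodes the actin-binding protein coronin of leukocytes, had the smallest adjusted p of the 31. It lay at 3.42 to 9.51 CPM (median 6.17) in controls, 10.9 to 13.4 (median 12.6) at 2 weeks and 16.7 to 28.8 (median 20.1) at 6 weeks, and no group overlapped another. The change came to 1.01 on the log2 scale (SE 0.18, adjusted p = 0.00395) at 2 weeks, 1.805 (SE 0.177, adjusted p = 1.81e-06) at 6 weeks and 0.79 (SE 0.165, adjusted p = 0.0138) between the times. These 3 calls were kept under every alternative but the test against a log2 fold change of 1, and the call at 6 weeks under that test too.

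Ptprc (chr1:138062861-138175708, minus strand), the phosphatase CD45 carried by all leukocytes, lay at 4.07 to 13.5 CPM (median 6.4) in controls, 10.4 to 22.4 (median 14.6) at 2 weeks and 22.3 to 42.5 (median 29.1) at 6 weeks. Its ranges met at the edges, where control mouse 4 reached into the 2-week group and the highest mouse at 2 weeks (22.4 CPM) stood next to the lowest at 6 weeks. It rose by 1.01 (SE 0.243, adjusted p = 0.0225) at 2 weeks and 1.97 (SE 0.24, adjusted p = 1.36e-05) at 6 weeks, and by 0.97 (SE 0.225, adjusted p = 0.0219) between the times. Cd52 (chr4:134082448-134095082, minus strand), a small glycoprotein anchored on lymphocytes and monocytes, had the largest fold change of the 31 at 6 weeks with all mice, 5.35-fold. Without control mouse 4 the change of Cd52 was 6.31-fold, below Ncf4 at 6.83-fold. The remaining controls held only 1 to 6 counts of Ncf4, around the floor of 3 counts. Cd52 itself, with all mice, had these levels. It lay at 0.185 to 1.04 CPM (median 0.561) in controls, 0.802 to 2.27 (median 1.54) at 2 weeks and 2.09 to 4.18 (median 3.62) at 6 weeks, on 2 to 61 counts per mouse. The 6-week group stood clear of the controls and overlapped the 2-week group. The log2 fold changes were 1.32 (SE 0.32, adjusted p = 0.0234), 2.42 (SE 0.283, adjusted p = 1.11e-05) and 1.10 (SE 0.234, adjusted p = 0.015) in the order 2 weeks, 6 weeks and between the times.

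The actin-bundling protein gene Lcp1 (plastin-2) lay at 6.66 to 23.3 CPM (median 12.7), 18.7 to 24.1 (median 20.3) and 24.7 to 45.9 (median 31) in the same order of groups. Its 6-week mice stood above all others, and it rose by 1.36 (SE 0.208, adjusted p = 0.000127) at 6 weeks and by 0.72 (SE 0.202, adjusted p = 0.0445) between the times. Laptm5, a lysosomal membrane protein of blood cells, rose by 1.31 (adjusted p = 0.00039) and the tetraspanin Cd53 by 1.11 (adjusted p = 0.00157) at 6 weeks. The 2-week call of Ptprc was lost without control 5, control 6 or 2-week mouse 5, and that of Cd52 without control 3, control 6 or 2-week mouse 5 or 6. Between the times, the call of Ptprc was lost without 2-week mouse 2 or 4 or 6-week mouse 6, and that of Lcp1 in 12 of the 18 fits without a single mouse. Without control mouse 4, 5 of the 6 were called at 2 weeks and 6 of 6 at 6 weeks and between the times. The shares of all genes in that fit were 3.77, 14.2 and 4.17%.

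The 3 oxidase genes were all called higher at 6 weeks, with groups that did not overlap the controls. Of all genes, 13.5% were so called and 5.8% lay wholly above the controls. Ncf4, the p40phox subunit that binds phosphoinositide on phagosomes, lay at 0.0925 to 1.04 CPM (median 0.298) in controls, 0.88 to 1.61 (median 1.14) at 2 weeks and 1.56 to 2.11 (median 2.01) at 6 weeks, on 1 to 34 counts per mouse. Only control mouse 4 reached into the 2-week range. Ncf4 rose by 1.52 (SE 0.333, adjusted p = 0.0137) at 2 weeks and 2.18 (SE 0.306, adjusted p = 5.91e-05) at 6 weeks, or 4.53-fold, and differed by 0.66 (adjusted p = 0.118) between the times. Ncf1, the organizing subunit p47phox, lay at 3.42 to 6.87 CPM (median 4.11), 6.34 to 11.4 (median 7.41) and 9.9 to 16.2 (median 12.2). Here too a single control overlapped the 2-week mice, and the changes were 0.82 (SE 0.177, adjusted p = 0.012), 1.43 (SE 0.173, adjusted p = 1.28e-05) and 0.61 (SE 0.161, adjusted p = 0.036).

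Cybb, the gene of the catalytic gp91phox subunit, was not called at 2 weeks. It lay at 5.87 to 20.1 CPM (median 8.29) in controls, 8.74 to 18.1 (median 14.3) at 2 weeks and 23.2 to 39.4 (median 25.8) at 6 weeks, and the 6-week mice stood above every other mouse. Its change was 0.48 (adjusted p = 0.282) at 2 weeks, 1.44 (SE 0.241, adjusted p = 0.000272) at 6 weeks and 0.97 (SE 0.234, adjusted p = 0.0249) between the times. Without control mouse 4 Cybb was called at 2 weeks too, with a change of 0.81 (adjusted p = 0.018) beside 0.99 for Ncf1 and 2.11 for Ncf4. The difference in timing between these genes was not tested. Between the times the call of Cybb was lost without 2-week mouse 1, 2 or 4 or 6-week mouse 6, and that of Ncf1 in 8 of 18 such fits. Of other parts of the enzyme, Rac2, the GTPase that activates the enzyme, rose by 1.57 (adjusted p = 6.93e-05) at 6 weeks and Cyba, the membrane partner of Cybb, by 0.42 (adjusted p = 5.91e-05).

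Lysosomal, secreted and lipid-associated genes divided, and 4 of 7 were called higher at 6 weeks, 1 at 2 weeks and 1 between the times. Among all genes, 13.5, 3.09 and 3.31% were called higher. Ctss (chr3:95526786-95556403, plus strand), the cathepsin that trims the invariant chain for antigen presentation and carries the motif shown above 2 bases before its start, lay at 3.24 to 17.1 CPM (median 7.42) in controls, 12.3 to 20.3 (median 17) at 2 weeks and 24.8 to 62.9 (median 37.3) at 6 weeks. Every 6-week mouse exceeded every other mouse, and control mouse 4 again lay among the 2-week mice. Ctss differed by 0.96 (adjusted p = 0.0626) at 2 weeks, and rose by 2.21 (SE 0.287, adjusted p = 2.63e-05) at 6 weeks, or 4.63-fold, and by 1.26 (SE 0.271, adjusted p = 0.016) between the times. The single-stranded nucleic acid exonuclease Pld4 lay at 2.96 to 11.8 CPM (median 6.29), 10.1 to 16.4 (median 11.2) and 13.4 to 26.9 (median 17.9). With all mice it alone of this role was called at 2 weeks, by 0.86 (SE 0.241, adjusted p = 0.0454), a call lost in 13 of 18 fits without a single mouse, and it rose by 1.496 (SE 0.237, adjusted p = 0.000176) at 6 weeks.

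Neither broadly expressed protease, Ctsb or Lgmn, was called with all mice. Ctsb, an abundant cathepsin of most cells, lay at 367 to 442 CPM (median 430) in controls, 399 to 437 (median 410) at 2 weeks and 284 to 458 (median 406) at 6 weeks. Its groups overlapped throughout, with a difference of -0.03 (adjusted p = 0.908) at 2 weeks and -0.10 (SE 0.0878, adjusted p = 0.463) at 6 weeks, which turned to 0.16 with library-size scaling. Lgmn, an asparagine-specific protease of endosomes, lay at 51.1 to 109 CPM (median 70.9), 63.8 to 85.3 (median 69.1) and 67.4 to 109 (median 104), and differed by 0.40 at 6 weeks (SE 0.152, adjusted p = 0.0619), or 0.55 (adjusted p = 0.00528) without control mouse 4. Between the times Lgmn was called without that mouse (0.43, adjusted p = 0.0482) and in the fit of the 12 irradiated mice (adjusted p = 0.0366). Gpnmb, a glycoprotein of lipid-laden macrophages, lay at 0.648 to 6.66 CPM (median 1.46), 0.661 to 4.44 (median 1.57) and 1.31 to 4.29 (median 2.78). Control mouse 4 had the highest Gpnmb of all 18 mice, and the difference at 6 weeks was 0.36 (SE 0.494, adjusted p = 0.653) with it and 1.17 (adjusted p = 0.0553) without it.

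Lyz2, the lysozyme of macrophages and neutrophils, rose by 0.91 at 6 weeks (SE 0.216, adjusted p = 0.00432), from 60.9 to 231 CPM in controls to 183 to 272 CPM, and Lgals3, the galectin of activated macrophages, rose by 1.33 (adjusted p = 0.00645). Without control mouse 4, 4 of the 7 genes of this role were called at 2 weeks (Ctss, Pld4, Lyz2 and Lgals3), 5 at 6 weeks and 4 between the times. In that fit 3.77, 14.2 and 4.17% of all genes were called higher. Of the 31-base sequences of Lyz2, 32.8% occur in its neighbour Lyz1, so that reads may have been assigned to either. Lyz1 rose by 2.84 (SE 0.57, adjusted p = 0.00126) at 6 weeks, at levels of 0.0833 to 6.998 CPM over the 18 mice. Parts of Csf1r, Cd52, Ctsb and Ncf1 (15.1, 14.5, 12.8 and 11.1% of their exonic bases) overlap exons of a gene on the opposite strand, and whether the quantification used strand is not given in the sources used here.

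**Figure D4:**
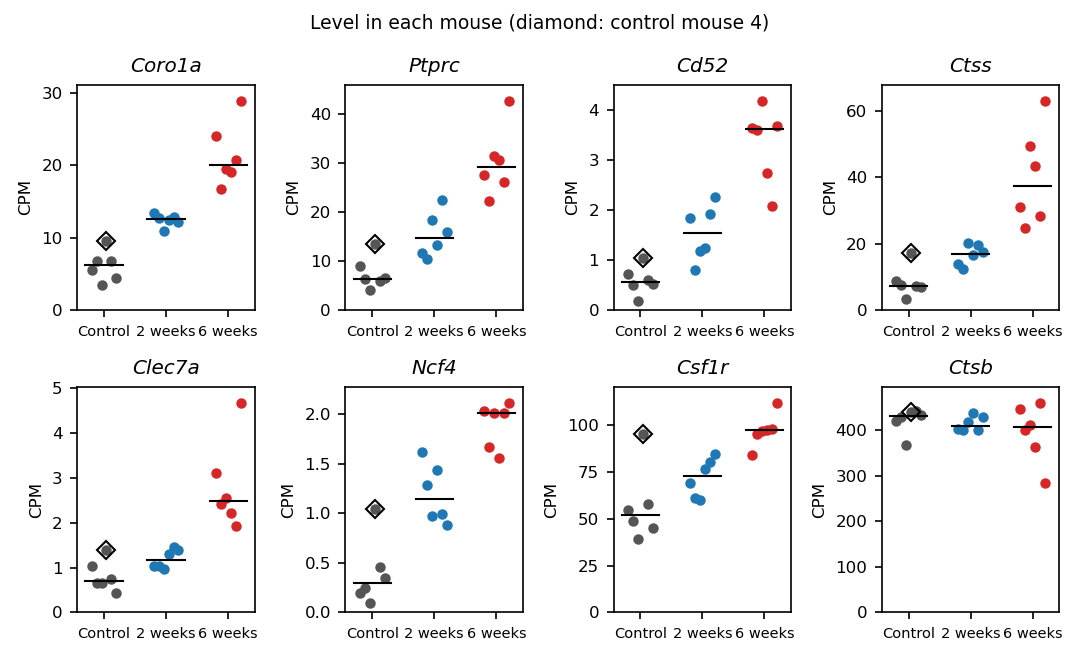
CPM (y axes, starting at 0) of 8 members in each mouse by group, with a line at the group median and a diamond around control mouse 4. Coro1a rises in 2 separated steps, the 6-week mice lie above all others for Clec7a and Ctss, the Csf1r value of control mouse 4 lies with the 6-week mice, and Ctsb stays level apart from 1 low mouse at 6 weeks.

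Between genes, levels were compared in TPM, which allows for transcript length. Lyz2, Ctsb, Lgmn and Tyrobp were the 4 highest by median TPM in each group and kept this order, and Fcgr1 was the lowest in each. Lyz2 had a median of 100 TPM in controls, 188 at 2 weeks and 293 at 6 weeks, and the neighbouring Ctsb 96.1, 116 and 126 TPM. In controls the Lyz2 range of 60.4 to 246 TPM covered that of Ctsb (83 to 112 TPM). The 246 TPM was that of control mouse 4. Lyz2 lay above Ctsb at 2 weeks already (157 to 209 against 103 to 124 TPM). At 6 weeks it did so as well (241 to 342 against 89.7 to 142 TPM). Ctsb made up 28.2% of the summed median TPM of the 31 genes in controls and 14.7% at 6 weeks, against 29.5 and 34% for Lyz2. Ctss moved from rank 8 in controls, with 6.34 TPM, to rank 5 at 6 weeks, with 42.9 TPM, next to Tyrobp (45.9 TPM) and Laptm5 (42.1 TPM), from which its range of 29.7 to 77.8 TPM does not separate it. TPM values were not scaled between mice, so they give order within a group and no change between groups. The median of Ctsb, for example, was higher at 6 weeks than in controls in TPM and lower in CPM.

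Of 15 signaling genes that act below or beside the Fc and ITAM receptors 13 were called higher at 6 weeks, 6 at 2 weeks and 5 between the times (beside 13.5, 3.09 and 3.31% of all genes). Their median log2 fold change was 1.33 at 6 weeks. Beyond a log2 fold change of 1 at 6 weeks were the Src-family kinase Fgr (adjusted p = 0.00836, with no fold given for a median of 1 count in controls), the exchange factor Vav1 (1.33, adjusted p = 5.91e-05), the adaptor Lcp2 (1.45, adjusted p = 0.000951) and the actin regulator Was (1.38, adjusted p = 8.84e-06). Genes that restrain the same signal rose as well, namely the phosphatases Ptpn6 (1.51, adjusted p = 5.41e-05) and Inpp5d (1.03, adjusted p = 2.23e-05) and the inhibitory receptors Pirb (1.66, adjusted p = 0.000118) and Fcgr2b (1.66, adjusted p = 0.000252). The activating receptor Fcgr4 was called higher at 6 weeks (adjusted p = 0.000304) and between the times (adjusted p = 0.0261), at 0 to 0.347 CPM in controls, 0.0654 to 0.597 at 2 weeks and 0.402 to 1.2 at 6 weeks. It had a median of 0.5 counts in controls and reached the filter through the 6-week mice, so no fold is given. Pirb (1.14, adjusted p = 0.0192) was past a log2 fold change of 1 already at 2 weeks. The kinase Syk differed by 0.20 (adjusted p = 0.229) and the phospholipase Plcg2 by 0.23 (adjusted p = 0.113) at 6 weeks.

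Myeloid growth factor and receptor genes were called higher at 6 weeks in 7 of 7 tested genes of a list of 9, with 1 called at 2 weeks and 1 between the times (beside 13.5, 3.09 and 3.31% of all genes). Csf2rb (1.85, adjusted p = 0.000592), Csf2rb2 (1.54, adjusted p = 0.02) and Csf2ra (1.01, adjusted p = 0.000168), which form receptors for GM-CSF and related cytokines, and Csf3r, the receptor for G-CSF (1.28, adjusted p = 0.0154), passed a log2 fold change of 1. The ligands of Csf1r, Csf1 and Il34, rose by 0.49 (adjusted p = 0.000986) and 0.44 (adjusted p = 0.0473). Flt3, a receptor of progenitors and dendritic cells, was called higher at both times (adjusted p = 0.0328 and 0.00684). Its controls lay at 0 to 0.555 CPM, with 2 of them at 0, and it reached the filter mainly through irradiated mice, so no fold is given. Of 12 myeloid transcription factors 7 were called higher at 6 weeks, 3 at 2 weeks and 4 between the times, beside the same shares of all genes. Irf8, which directs monocyte and dendritic cell fate, lay at 4.53 to 9.5 CPM in controls, 10.6 to 15.4 at 2 weeks and 18 to 25.4 at 6 weeks, without overlap, and rose by 1.61 (SE 0.167, adjusted p = 3.12e-06). Irf5 (1.57, adjusted p = 1.28e-05), Ikzf1 (1.36, adjusted p = 1.6e-05) and Runx1 (1.36, adjusted p = 0.00115) rose at 6 weeks too, the last by 0.95 between the times (adjusted p = 0.0431).

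General lysosomal genes were a further list. Of 17 enzymes and membrane proteins of the lysosome 9 were called higher at 6 weeks, 1 at 2 weeks and 3 between the times (beside 13.5, 3.09 and 3.31% of all genes), none past a log2 fold change of 1, and the median log2 fold change was 0.32 at 6 weeks. The summed level of these 17 genes was 3078 to 3374 CPM in controls and 3026 to 3429 CPM at 6 weeks. Among 14 lipid-associated and phagocytic genes, 8 were called higher and 1 lower at 6 weeks, 2 higher and 1 lower at 2 weeks, and 2 higher between the times. The shares of all genes called higher are those given for the lysosomal list. Of all 15054 genes, 1731 were called lower at 6 weeks and 290 at 2 weeks. The cholesterol exporter Abcg1 lay at 6.9 to 11.47 CPM in controls, 13.7 to 23.9 at 2 weeks and 28.7 to 44.1 at 6 weeks, again without overlap, and rose by 1.17 (adjusted p = 0.000192) and then 2.03 (SE 0.148, adjusted p = 5.98e-08). The integrin subunit Itgax (CD11c) was called higher at 6 weeks (adjusted p = 0.000162), at 0 to 0.555 CPM in controls and 1.87 to 13.3 CPM at 6 weeks. Itgax reached down to 0 in controls, so no fold against them is given, and it rose by 1.68 between the times (adjusted p = 0.0382). Its partner Itgb2 (1.27, adjusted p = 0.000314), the related Itgam (1.32, adjusted p = 8.14e-05) and the fatty acid binding protein Fabp5 (1.10, adjusted p = 0.0196) rose as well. The fatty acid transporter Cd36, which capillaries and cardiomyocytes also carry, was called lower, with a log2 fold change of -0.47 (adjusted p = 0.0134) at 2 weeks and -0.37 (adjusted p = 0.0113) at 6 weeks.

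Markers of other cell types were followed beside the 31 genes, as lists of genes summed in each mouse. Markers of recruited monocytes (Ccr2, Ly6c2, Plac8, Chil3 and Fn1) summed to 87.7 to 388 CPM in controls. The sums were 237 to 338 CPM at 2 weeks and 354 to 846 CPM at 6 weeks. Control mouse 4 held the 388 CPM, and the other 5 controls reached no more than 200 CPM. Fn1, a matrix protein that fibroblasts also make, made up most of the sum, with group medians of 169, 273 and 517 CPM. All 4 that could be tested were called higher at 6 weeks, beside 13.5% of all genes. Of these, Plac8 had a control median of 0.176 CPM, under the filter's 0.23 CPM, and reached the filter mainly through irradiated mice. The chemokine receptor Ccr2 rose by 1.94 (adjusted p = 0.0189) at 2 weeks and 2.61 (adjusted p = 0.000283) at 6 weeks. Chil3 was at 0 in 5 controls, 5 mice at 2 weeks and 3 at 6 weeks. Markers of resident macrophages (Lyve1, Timd4, Folr2, Cd163, Mrc1 and Cbr2) summed to 85.1 to 165, 110 to 139 and 102 to 152 CPM. The 165 CPM was that of control mouse 4, and the other 5 controls reached no more than 113 CPM. Of the 6 resident markers, Mrc1 (0.44, adjusted p = 0.0496) and Cbr2 (0.35, adjusted p = 0.0497) were called higher at 6 weeks. The scavenger receptor Cd163 was called lower (-0.98, SE 0.261, adjusted p = 0.00977), as were 1731 of all 15054 genes at 6 weeks. None of the 6 was called at 2 weeks. The part of either list in the levels of the 31 genes was not tested.

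Lymphocyte and granulocyte markers were scarce. Over all genes, 13.5% were called higher at 6 weeks and 3.09% at 2 weeks. Nkg7, Lck, Cd8a, Cd79a, Cd79b, Flt3 and Cd209a had control medians of 0.0703 to 0.229 CPM, under the filter's 0.23 CPM. They reached the filter mainly through irradiated mice, which favours higher calls among the markers tested. Their counts are no separate support. The 9 T and NK cell markers summed to 0.925 to 2.15 CPM in controls, 1.44 to 3.51 at 2 weeks and 4.3 to 6.27 at 6 weeks, with 3 of 5 tested called higher at 6 weeks (Nkg7, Lck and Cd8a) and the NK receptor Ncr1 at 0 in all controls. The 5 B cell markers summed to 0.463 to 0.832, 0.327 to 2.98 and 1.13 to 2.63 CPM, with 2 of 3 tested called higher at 6 weeks (Cd79a and Cd79b). These lists move with Ptprc, Cd52, Cd53, Laptm5, Coro1a and Lcp1, which lymphocytes also make, and their part was not tested. The 7 neutrophil markers summed to 0.185 to 3.7, 1.6 to 3.79 and 2.08 to 5.57 CPM, with the defining genes Ly6g and Mmp8 at 0 in all controls and Csf3r the only gene of 2 tested that was called at 6 weeks. The 6 dendritic cell markers summed to 33 to 40.7, 37 to 42.9 and 37.8 to 43.3 CPM, most of it Zbtb46 (medians 31.5, 34.3 and 31.3 CPM). Flt3 was called higher at both times and Cd209a and Xcr1 at 6 weeks. The 5 mast cell markers summed to 7.11 to 13, 7.76 to 13.1 and 11.4 to 16.5 CPM, most of it Kit (medians 8.09, 10.9 and 12.1 CPM). Fcer1a was at 0 in all 18 mice, and Kit was the only gene of 3 tested that was called (at 6 weeks).

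Cardiomyocyte markers were called lower at 6 weeks, and none was called at 2 weeks. The 6 cardiomyocyte markers summed to 28253 to 44556 CPM in controls, 30964 to 39307 at 2 weeks and 23446 to 31526 at 6 weeks. Without control mouse 4, the control sums were 37063 to 44556 CPM. At 6 weeks 6 of 6 were called lower, with a median log2 fold change of -0.50. The median was -0.19 at 2 weeks, and between the times 1 was called lower, with a median of -0.33. Over all 15054 genes tested, 1731 were called lower and 2029 higher at 6 weeks, 290 lower at 2 weeks and 303 lower between the times. Fibroblast markers summed to 868 to 2949 (868 to 1273 in controls without mouse 4), 1430 to 1652 and 1146 to 1619 CPM, with Pdgfra alone of 5 called, lower at both times. The 5 endothelial markers summed to 663 to 834, 751 to 872 and 835 to 1136 CPM, with Pecam1 and Cdh5 called higher and Tie1 lower at 6 weeks. Red cell globins and Alas2 summed to 45.8 to 1119, 64.7 to 630.1 and 40.3 to 108 CPM, with Hba-a1 of 4 tested called lower at 6 weeks. The part of these shifts in the levels of the 31 genes was not tested.

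**Figure D5:**
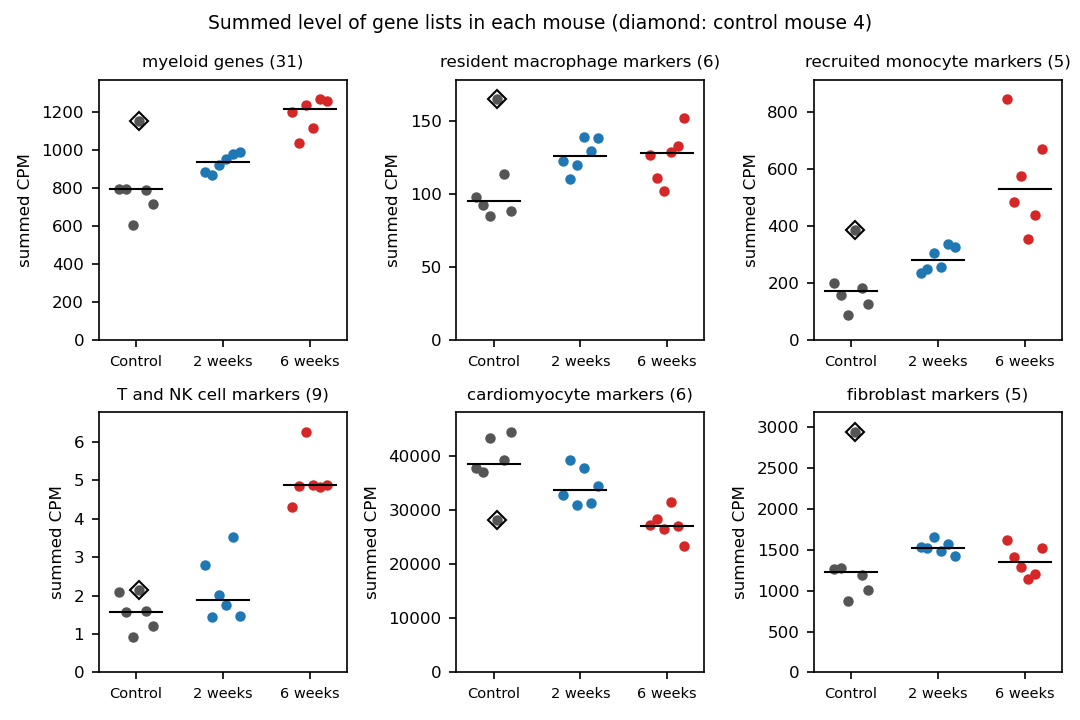
Summed CPM (y axes, starting at 0) of the 31 myeloid genes and of 5 lists of cell type markers in each mouse by group, with a line at the group median and a diamond around control mouse 4. Control mouse 4 lies apart in the myeloid, macrophage, monocyte, fibroblast and cardiomyocyte panels and close to the next control in the T and NK cell panel.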

How the data were processed

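RNA-seq of heart tissue from 18 mice was analysed from the deposited gene tables. The authors used STAR for alignment to GRCm38, Salmon 1.0 for transcript abundance and tximport for gene totals, and the submitters' processing notes also name CASAVA 1.8. The deposited estimated counts are not normalized between mice. The TPM values deposited by the authors are scaled within each mouse for transcript length and depth. The submitters' labels call the tissue septum, and the study's methods call it ventricular tissue, irradiated with X-rays under image guidance after CT imaging that controls shared.

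Counts were rounded, and a gene was kept where 6 or more mice reached 0.23 CPM (counts relative to a scaled library size). Genes near 0 in controls pass this filter only through irradiated mice, which favours higher calls among scarce genes. Rows without a gene symbol held 0.184% of counts. TMM scaling and a quasi-likelihood F test (edgeR 4.0.16 in R 4.3.3, two-sided) compared 3 groups in 1 fit, with p-values adjusted by Benjamini-Hochberg over 15054 genes per comparison. SE is the absolute log2 fold change divided by the square root of F. Alternatives used limma 3.58.1 and DESeq2 1.42.0. The fitting code was tested on simulated data. Library values were compared by two-sided exact permutation tests. No 2 mice had identical values, and each mouse was taken as a replicate. The labels name no batch. The floor of 3 counts covers counting error only.

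The members and all gene lists were chosen with earlier results of these data known. Every member is named. Values by mouse are given for the smallest adjusted p of a role at 6 weeks and for members called at 2 weeks, called between the times or not called at 6 weeks. Some genes of the lists are not reported here, and the counts and sums leave them out. From the pathway lists, genes past a log2 fold change of 1 or called lower are named. Other members, markers and paralogs are named with fewer values where a count or result turns on them. Coordinates and overlaps are from GENCODE annotation of GRCm38. Promoters are from RefSeq, with 30 windows for 23 members.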

Additional observations from a re-analysis of the deposited data

Results flagged for a closer look

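A mouse far from the other 5 of its group was found in 20 of 93 combinations of gene and group by Dixon's test at its 95% critical value for 6 mice, where chance gives about 1 in 20. Control mouse 4 was the highest control in 13 of them. It had 95.06 CPM of Csf1r (the next control had 57.68), 21.99 of Adgre1 (11.67), 28.38 of Cd68 (13.47), 9.853 of Cx3cr1 (3.906), 7.147 of Cd14 (4.234), 8.326 of Ms4a7 (2.604) and 3.4 of Cd84. It also had 41.49 CPM of Laptm5 (21.16), 20.12 of Cybb (9.829), 6.869 of Ncf1 (4.612), 230.8 of Lyz2 (105.7), 6.661 of Gpnmb (1.966) and 2.567 of Lgals3 (1.107). The same mouse had the lowest summed cardiomyocyte markers and the highest summed fibroblast markers of the controls, and their part in these levels was not tested.

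The other 7 cases were spread over 6 mice and 6 genes. Fcgr1 stood at 1.562 CPM in control mouse 1 (next control 0.1388) and at 3.485 CPM in 6-week mouse 3 (next 0.8353). Mouse 6 at 6 weeks had 5.869 CPM of Fcer1g (next 4.057) and 39.36 CPM of Cybb (next 27.98), and 2-week mouse 5 had 23.81 CPM of Adgre1 (next 18.36). The low values were Ctsb at 366.8 CPM in control mouse 3 (next 419.4) and Lgmn at 67.39 CPM in 6-week mouse 2 (next 94.15).

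For 9 members the level differed between the 2 times after irradiation, by edgeR's quasi-likelihood test of 6 weeks against 2 weeks. The log2 differences were 0.8474 for Cd14, 1.223 for Clec7a, 0.966 for Ptprc, 1.104 for Cd52, 0.7907 for Coro1a, 0.7219 for Lcp1, 0.9651 for Cybb, 0.6092 for Ncf1 and 1.257 for Ctss, with adjusted p from 0.0089 for Clec7a to 0.0445 for Lcp1.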

How the results depend on the processing

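The counts of members called higher were 7, 25 and 9 (2 weeks post-IR against controls, 6 weeks post-IR against controls, 6 weeks against 2 weeks post-IR), and no member was called lower in any alternative of these 3 counts. With sample quality weights in limma voom they were 11 at 2 weeks and 17 between the times, with library size only 11 and 14, and in the test against a log2 fold change of 1 they were 0, 6 and 0. On log2(TPM + 1), log2(TPM + 0.1) and log2(TPM + 1) without a filter the count at 2 weeks was 16, 18 and 14, and with only the 2 groups compared in the fit it was 22 between the times. When each mouse was left out in turn, the counts ran from 4 to 17 at 2 weeks (4 without control 6 and without 2-week mouse 5, 17 without control 4), from 23 to 27 at 6 weeks and from 5 to 22 between the times (5 without 2-week mouse 2, 2-week mouse 4 or 6-week mouse 6, 22 without control 4). Apart from the test against a log2 fold change of 1, all alternatives kept 4 of the 7 calls at 2 weeks (Aif1, Coro1a, Ncf1 and Ncf4), 23 of the 25 at 6 weeks (all but Cd68 and Tyrobp) and 5 of the 9 between the times (Cd14, Clec7a, Cd52, Coro1a and Ctss). Over the 31 members and 34 alternatives, of which the literal reading of the study's filter left Fcgr1 without a value, the direction and the side of the threshold were kept in 929, 996 and 942 cases, calls were gained in 50, 22 and 64 and lost in 31, 31 and 40, and the sign turned in 43, 4 and 7.

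For 2 weeks post-IR against controls, all genes, the 755 calls became 1216 with DESeq2, 1789 with library size only, 10 against a log2 fold change of 1, and 2813, 3026 and 2366 on the 3 TPM scales in the order above. For 6 weeks post-IR against controls, all genes, the 3760 calls became 5820 with library size only, 146 against a log2 fold change of 1 and 7472, 7463 and 7181 on the TPM scales. For 6 weeks against 2 weeks post-IR, all genes, the 802 calls (499 higher) became 1 against a log2 fold change of 1, and 1098 of 1202 were higher with library size only. Leaving out mice gave 453 to 882, 3089 to 3927 and 323 to 995 calls. Library size only moved the all-gene median to 0.148, 0.243 and 0.111, and log2(TPM + 1) moved it to 0.178, 0.286 and 0.115. The cause of these changes was not tested.

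Log2 fold changes near 0 changed sign. At 2 weeks Fcgr1 was 0.10 with DESeq2, and limma voom gave Ms4a7 0.22, Fcgr1 0.75, Lgmn 0.0078 and Gpnmb 0.15, with quality weights 0.36, 0.83, 0.045 and 0.28. Library size only gave Fcgr1 0.078, Ctsb 0.13, Lgmn 0.11 and Gpnmb 0.057. On log2(TPM + 1), with and without the filter, Ms4a7 was 0.28, Fcgr1 0.051, Ctsb 0.23, Lgmn 0.25 and Gpnmb 0.11, and on log2(TPM + 0.1) the values were 0.51, 0.47, 0.23, 0.26 and 0.34. The covariate of Y-linked genes gave Gpnmb 0.012. At 6 weeks Ctsb was 0.16 with library size only and 0.29 on all 3 TPM scales, and between the times 0.039 and 0.059. Leaving out mice gave, at 2 weeks, Fcgr1 -0.37 to 2.26, Lgmn -0.11 to 0.12, Tyrobp -0.024 to 0.52, Ms4a7 -0.30 to 0.63 and Gpnmb -0.46 to 0.73, and between the times Trem2 -0.13 to 0.45 and Ctsb -0.12 to 0.0088.

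The labels number the mice 1 to 6 in each group, but these numbers did not pair the mice: deviations of same-numbered mice correlated at -0.0828 to 0.106, above 0.1 in 2 of 18 pairs, and 8 of 36 best matches fell on the own number. With the replicate block, 5, 25 and 8 members were called, and Ms4a7 turned to 0.028 at 2 weeks. Counting error is larger for genes of few counts, such as Fcgr1 (0 to 45 counts per mouse), Ncf4 and Cd52.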
